A study of Homo sapiens with 4 samples.

Results

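Genes that repair broken, cross-linked or mismatched DNA were compared between cells carrying a hairpin against MIF and cells carrying a control hairpin, in ARP-1 and MM.1S, a pair of human multiple myeloma lines. The list holds 39 genes of homologous recombination, the Fanconi anaemia pathway, mismatch repair, uracil removal and the checkpoint kinases. They were chosen by name, but with earlier results of these data known. Counts of members set beside shares of all tested genes are therefore a description and not an independent test. A probe set was named for 20 of the 39 among the 14884 genes named here. The label Fanconi is only partly carried by the data: 0 of the 10 members with a FANC symbol had a named probe set, and neither did BRCA1, BRCA2, RAD51D, RBBP8, BLM, WRN, RMI1, RMI2 and ATM. The Fanconi pathway is represented by BRIP1, PALB2, RAD51C and XRCC2, which carry the Fanconi names J, N, O and U. Among the members, mismatch repair is represented by MSH6 and PMS2, and EXO1 also serves it. MSH3, MLH3 and PMS1 stand among the further genes below.

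Each of the 4 whole-transcript microarrays held total RNA of 1 line under 1 condition: CTR-KO ARP-1, MIF-KO ARP-1, CTR-KO MM.1S and MIF-KO MM.1S. Cells of both conditions were infected with a hairpin lentivirus and sorted for the green marker GFP, so KO names a knockdown here, and the control cells carry virus and marker as well. Both lines were grown in RPMI1640 medium with fetal bovine serum. The labels name no separate cultures or clones. The p-values therefore rest on how far the lines disagree across these 4 samples, and not on repeats within a line. Part of that spread may be technical. For ARP-1 the free-text description of each array contradicts its title by naming the other condition, and titles were followed.

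Homologous recombination rebuilds a broken chromosome from its sister copy: nucleases trim the broken ends, BRCA2 and PALB2 prepare the trimmed strand for pairing, and RAD54 motors drive strand exchange. The Fanconi pathway recognises cross-links between DNA strands and hands the break to the same machinery, while mismatch repair removes copying errors behind the replication fork. Many of these genes are known to be transcribed most strongly as cells enter S phase. In activated B cells, the precursors of plasma cells, UNG and the mismatch proteins also take part in antibody gene diversification.

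MIF, the targeted gene and a secreted cytokine, had an intensity of 1092 (CTR-KO) and 541 (MIF-KO) in ARP-1, and 1012 (CTR-KO) and 405 (MIF-KO) in MM.1S. In both lines the array titled MIF-KO had less of it. Median intensities over all probe sets lay between 13.1 and 13.3. Of 8 named plasma cell markers, 7 passed the filter on low values described next, among them the transcription factors IRF4 (log2 11.81 to 12.10 over the 4 arrays) and XBP1 (9.86 to 10.37). Of the markers of other cell types, 0 of 3 for B cells, 2 of 3 for T and NK cells, 0 of 4 for monocytes, 0 of 1 for erythroid cells and 1 of 4 for stroma and epithelium passed it. CTR-KO ARP-1 stood apart: 20 to 44 tested genes were at least 4-fold apart between it and another array, against 0 to 6 genes for the pairs without it. Every ARP-1 difference below rests on that array, and no MM.1S difference uses it. In bulk RNA, fewer cells expressing a gene and less RNA per cell cannot be told apart.

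Genes with a mean log2 intensity of at least 4.97, the median of all gene means, were tested, 7442 in all and 18 of the 20 named members. RAD54B, with a mean of 5.35, was the member nearest above that level. CHEK2 (4.55) and RAD51B (3.48) lay below it and are given as values. Levels of different genes are not compared, because probe sets differ in brightness. Unless an intensity is named, values are log2 differences, MIF-KO minus CTR-KO, where 0.58 corresponds to 1.5-fold.

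The 4 members with the widest difference within a line were BRIP1, XRCC2, UNG and MRE11, and their promoters are shown for that width alone. Whether their promoters bear on the differences was not tested. Each sequence runs 5′ to 3′ along the gene's strand from 250 bases before a RefSeq start site to 30 bases after it (build GRCh38.p14). Capitals mark the word CCAAT and the E2F-type words TTTCCCGC, TTTCGCGC, TTTGCCGC and TTTGGCGC on either strand. A word on the opposite strand appears as its reverse complement, so CCAAT appears there as ATTGG. UNG has 2 start sites, the upstream one first.
BRIP1, chr17:61863499-61863778, minus strand: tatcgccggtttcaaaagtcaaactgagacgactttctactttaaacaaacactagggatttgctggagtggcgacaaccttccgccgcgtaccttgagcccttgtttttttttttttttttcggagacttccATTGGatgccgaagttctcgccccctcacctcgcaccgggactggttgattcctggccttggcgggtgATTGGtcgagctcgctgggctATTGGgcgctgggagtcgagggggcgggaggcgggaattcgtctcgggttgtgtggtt
XRCC2, chr7:152676112-152676391, minus strand: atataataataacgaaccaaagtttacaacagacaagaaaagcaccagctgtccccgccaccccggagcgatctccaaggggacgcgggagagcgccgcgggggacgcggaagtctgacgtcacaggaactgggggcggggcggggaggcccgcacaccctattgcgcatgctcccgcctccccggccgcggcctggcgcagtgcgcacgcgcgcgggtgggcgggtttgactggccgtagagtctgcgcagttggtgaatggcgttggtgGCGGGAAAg
UNG, chr12:109097347-109097626, plus strand: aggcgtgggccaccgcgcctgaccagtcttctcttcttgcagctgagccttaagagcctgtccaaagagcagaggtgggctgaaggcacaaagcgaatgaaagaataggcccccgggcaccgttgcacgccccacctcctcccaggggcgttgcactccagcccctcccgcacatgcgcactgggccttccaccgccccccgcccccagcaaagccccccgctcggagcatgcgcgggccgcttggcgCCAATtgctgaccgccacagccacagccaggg
UNG, chr12:109097922-109098201, plus strand: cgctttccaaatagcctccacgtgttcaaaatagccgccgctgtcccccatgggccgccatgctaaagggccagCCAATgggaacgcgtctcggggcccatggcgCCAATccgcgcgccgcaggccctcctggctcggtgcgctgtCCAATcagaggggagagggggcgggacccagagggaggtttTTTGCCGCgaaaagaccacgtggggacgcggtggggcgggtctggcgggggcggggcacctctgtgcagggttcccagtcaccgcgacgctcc
MRE11, chr11:94493815-94494094, minus strand: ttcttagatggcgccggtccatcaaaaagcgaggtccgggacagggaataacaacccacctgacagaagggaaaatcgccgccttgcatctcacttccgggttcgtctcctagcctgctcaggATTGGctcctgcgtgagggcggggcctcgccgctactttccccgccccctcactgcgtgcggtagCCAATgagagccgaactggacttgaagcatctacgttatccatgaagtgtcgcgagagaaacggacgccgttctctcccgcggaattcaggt
The XRCC2 sequence held 1 E2F-type word, 21 to 28 bases past the start site, and the downstream UNG sequence held 1, from position -63 to -56. BRIP1 and MRE11 held none of these words, but BRIP1 held CCAAT at 3 places and MRE11 at 2.

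RefSeq windows of 300 bases (250 before and 50 after a start) were found for 18 of the 20 named members, 29 windows in all. An E2F-type word lay in a window of 5 of the 18 genes (EXO1, MSH6, PMS2, UNG and XRCC2), or 20.7% of the 29 windows, against 3.31% of all 35116 windows. CCAAT lay in windows of 11 genes, or 55.2% of windows, against 34.6% of all. The word TTTGAA, known as the cell cycle homology region, lay in windows of 2 genes (BRIP1 and UNG), or 6.9% of windows, against 15.2% of all. Windows of a gene can overlap, as both PMS2 windows hold the same word, and a match of letters is no binding site. Of the 5 genes with an E2F-type word, EXO1, MSH6, UNG and XRCC2 were at least 1.5-fold lower in MIF-KO ARP-1 and PMS2 was not. BRIP1, RAD51C, RAD54L and CHEK1, whose windows hold none, were also at least 1.5-fold lower there, and BRIP1 differed most.

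The repair genes lay lower with the MIF hairpin in ARP-1 and higher in MM.1S. In ARP-1, 14 of the 18 tested members were below their control, where 52.3% of all tested genes were, and 8 were at least 1.5-fold lower, where 11.9% of all tested genes were. None was 1.5-fold higher (0 of 18; 10.9% of all genes). In MM.1S, 17 of 18 were above their control (55.1% of all genes), 6 were at least 1.5-fold higher (5.12%) and 0 were 1.5-fold lower (2.89%). At 2-fold, 2 of 18 were lower in ARP-1, BRIP1 and UNG (2.9% of all genes), and 1 was higher in MM.1S, XRCC2 (0.618%). The median difference of the members was -0.50 in ARP-1 against 0.42 in MM.1S, beside medians of -0.03 and 0.04 over all tested genes.

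BRIP1, XRCC2, EXO1, UNG and CHEK1 passed 1.5-fold in both lines, each lower with the MIF hairpin in ARP-1 but higher in MM.1S. These are 5 of 18 members, where 3.24% of all tested genes did the same. No member passed 1.5-fold the same way in both lines (0 of 18; 0.0806% of all genes). Counted by direction alone, 14 members were below control in ARP-1 and above it in MM.1S (37.5% of all genes). RAD50, RAD54B and PMS2 were above control in both lines (17.6%), and BARD1 ran against the other members in both. For 13 of 18 members the highest arrays were CTR-KO ARP-1 and MIF-KO MM.1S, the pair that shares neither line nor condition, as against 29.9% of all tested genes. Those arrays were less than 1.5-fold apart for all 18 members. The remaining pair (CTR-KO MM.1S with MIF-KO ARP-1) was 1.5-fold apart for 2 members, RAD54L and RAD54B. The shares of all tested genes at that fold were not counted for these pairs, so these counts do not set the repair genes apart.

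**Figure D1:**
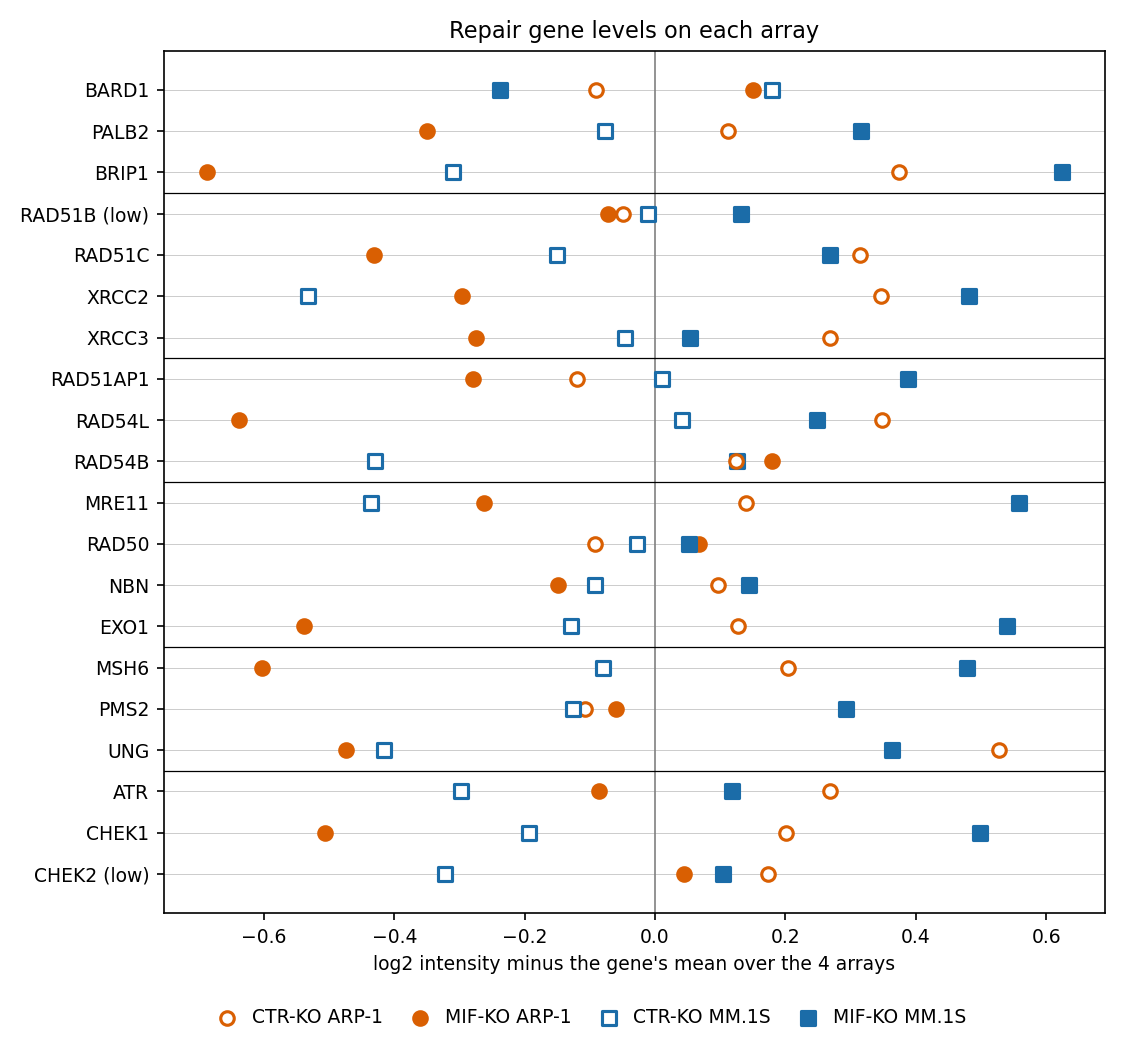
Log2 intensity of each of the 20 named repair genes on the 4 arrays, minus that gene's mean over the arrays. Circles are ARP-1 and squares MM.1S, open for CTR-KO and filled for MIF-KO. "(low)" marks the 2 genes below the filter, and lines separate role groups. Filled circles lie lowest for 11 of the 18 tested members (29.3% of all tested genes) and filled squares highest for 10 (22.3%).

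No repair gene passed a test of the hairpin averaged over the lines. limma, with condition and line as terms and Benjamini-Hochberg adjustment over all 7442 genes, called 0 of 18 members and 0% of all genes at an adjusted p below 0.05. At an unadjusted p below 0.05 it had 0 members and 29 genes (0.39%). The lowest adjusted p of any gene was 0.99995. The median of the members' mean differences over both lines was -0.0061. The fit has 1 residual degree of freedom, which is the disagreement of the lines, and a missed threshold here does not show that the genes are unchanged within a line. The variation of the members between arrays (sums of squares) was 78.7% opposition of the lines, 13.7% line and 7.64% condition, as against 55%, 26.5% and 18.5% for all tested genes.

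Of the partners of BRCA1 and BRCA2, BRIP1, the helicase that binds BRCA1, differed most. Its intensity was 227 (CTR-KO) and 109 (MIF-KO) in ARP-1, and 141 (CTR-KO) and 269.6 (MIF-KO) in MM.1S. It was lowest on MIF-KO ARP-1 and highest on MIF-KO MM.1S, and differed by -1.06 in ARP-1 against 0.94 in MM.1S (mean -0.06, limma SE 0.53, n = 2 lines). Every SE given with a gene is limma's, which draws the gene's own spread towards a trend over all tested genes. It therefore does not measure how far the 2 lines agree for that gene, which the separate differences show. PALB2, the bridge between BRCA1 and BRCA2, had intensities of 97.2 and 70.5 on the CTR-KO and MIF-KO arrays of ARP-1, and 85.2 and 112 on those of MM.1S. It had the order of BRIP1 across the arrays at less width, with differences of -0.46 and 0.39 (mean -0.03, SE 0.33).

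BARD1, the partner with which BRCA1 forms a ubiquitin ligase, went the other way. Its intensity was 219.5 (CTR-KO) and 259 (MIF-KO) in ARP-1, and 265 (CTR-KO) and 198 (MIF-KO) in MM.1S. It was lowest on MIF-KO MM.1S, where most members were highest, and differed by 0.24 in ARP-1 against -0.42 in MM.1S (mean -0.09, SE 0.33). It was the sole tested member above control in ARP-1 and below it in MM.1S, a combination found in 30.1% of all tested genes. Neither difference reached 1.5-fold.

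The genes of the complexes formed around RAD51C and XRCC2, which take part in recombination, were lower with the MIF hairpin in ARP-1 but higher in MM.1S for all 3 tested members. XRCC2 had intensities of 392 (CTR-KO) and 251 (MIF-KO) in ARP-1, and 213 (CTR-KO) and 431 (MIF-KO) in MM.1S. Both high arrays lay above both low arrays by more than the high arrays differed from each other, and XRCC2 differed by -0.64 and 1.01 (mean 0.19, SE 0.48). RAD51C, found in both complexes, had intensities of 166, 99.0, 120.3 and 161 in the same order of arrays. It differed by -0.75 in ARP-1 against 0.42 in MM.1S (mean -0.16, SE 0.39). XRCC3, the partner of RAD51C, had intensities of 65.4, 44.9, 52.6 and 56.3 and differed by -0.54 and 0.099 (mean -0.22, SE 0.27), so its width lay in ARP-1. RAD51B, below the filter, had intensities from 10.6 to 12.2.

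The RAD54 motors did not move alike. RAD54L, which drives strand exchange, had intensities of 87.5 (CTR-KO) and 44.1 (MIF-KO) in ARP-1, and 70.7 (CTR-KO) and 81.6 (MIF-KO) in MM.1S. MIF-KO ARP-1 stood below the other 3 arrays, with differences of -0.99 in ARP-1 against 0.21 in MM.1S (mean -0.39, SE 0.36). Its relative RAD54B had intensities of 44.4, 46.2, 30.3 and 44.5, in the same order. There the low array was CTR-KO MM.1S, and the differences were 0.055 and 0.56 (mean 0.31, SE 0.23). RAD51AP1, which promotes strand exchange, had intensities of 135, 120.4, 147 and 191 and differed by -0.16 and 0.38 (mean 0.11, SE 0.31), highest on MIF-KO MM.1S.

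Among the genes that open and trim broken ends, MRE11, EXO1 and NBN were lower with the MIF hairpin in ARP-1 but higher in MM.1S, and RAD50 was nearly level. The nuclease MRE11 had intensities of 242 (CTR-KO) and 183 (MIF-KO) in ARP-1, and 162 (CTR-KO) and 324 (MIF-KO) in MM.1S. MIF-KO MM.1S was the high array, and the differences were -0.40 and 0.995 (mean 0.30, SE 0.43). RAD50 and NBN form a complex with MRE11. RAD50 had intensities of 664, 742, 695 and 735 in the same order, differences of 0.16 and 0.080 and a mean of 0.12 (SE 0.28). NBN had intensities of 219.9, 185, 193 and 227 and differed by -0.25 and 0.24 (mean -0.0044, SE 0.32). The 3 subunits therefore covered unequal ranges: the gap between the responses of the lines was 1.40 for MRE11, 0.48 for NBN and -0.08 for RAD50. EXO1, a long-range resection nuclease that also serves mismatch repair, had intensities of 310.2, 196, 259.6 and 413 and differed by -0.67 in ARP-1 against 0.67 in MM.1S, so its mean was 0.0020 (SE 0.42).

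In mismatch repair, MSH6 differed more than PMS2. MSH6, which recognises mismatches, had intensities of 192 (CTR-KO) and 109.95 (MIF-KO) in ARP-1, and 158 (CTR-KO) and 233 (MIF-KO) in MM.1S. It was lowest on MIF-KO ARP-1 and highest on MIF-KO MM.1S, and differed by -0.81 and 0.56 (mean -0.13, SE 0.42). PMS2, an endonuclease subunit that acts after recognition, had intensities of 165, 171, 164 and 218 in the same order. Only MIF-KO MM.1S stood above the others, with differences of 0.049 and 0.42 (mean 0.23, SE 0.31). PMS2 has near-identical pseudogene copies whose RNA its probes may share, so its values are uncertain.

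UNG, the glycosylase that removes uracil from DNA, had the second widest gap between the lines after BRIP1. Its intensities were 330.2 (CTR-KO) and 165 (MIF-KO) in ARP-1, and 172 (CTR-KO) and 295 (MIF-KO) in MM.1S. The arrays fell into a high and a low pair, with differences of -1.002 in ARP-1 against 0.78 in MM.1S (mean -0.11, SE 0.50), and 98.1% of its sum of squares lay along the opposition of the lines.

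Of the checkpoint kinases, CHEK1, which holds the cell cycle when forks stall, had intensities of 289 (CTR-KO) and 177 (MIF-KO) in ARP-1, and 219.75 (CTR-KO) and 355 (MIF-KO) in MM.1S. It differed by -0.71 and 0.69, about equal and opposite (mean -0.0077, SE 0.43). ATR, the kinase that activates CHEK1, had intensities of 118, 92.0, 79.4 and 106 in the same order. It lay lowest on CTR-KO MM.1S and differed by -0.35 and 0.42 (mean 0.03, SE 0.32). CHEK2, the kinase downstream of ATM, was below the filter, with intensities of 26.5, 24.2, 18.8 and 25.3. The other CHEK2 probe set was lower still, at log2 2.49 to 2.54.

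**Figure D2:**
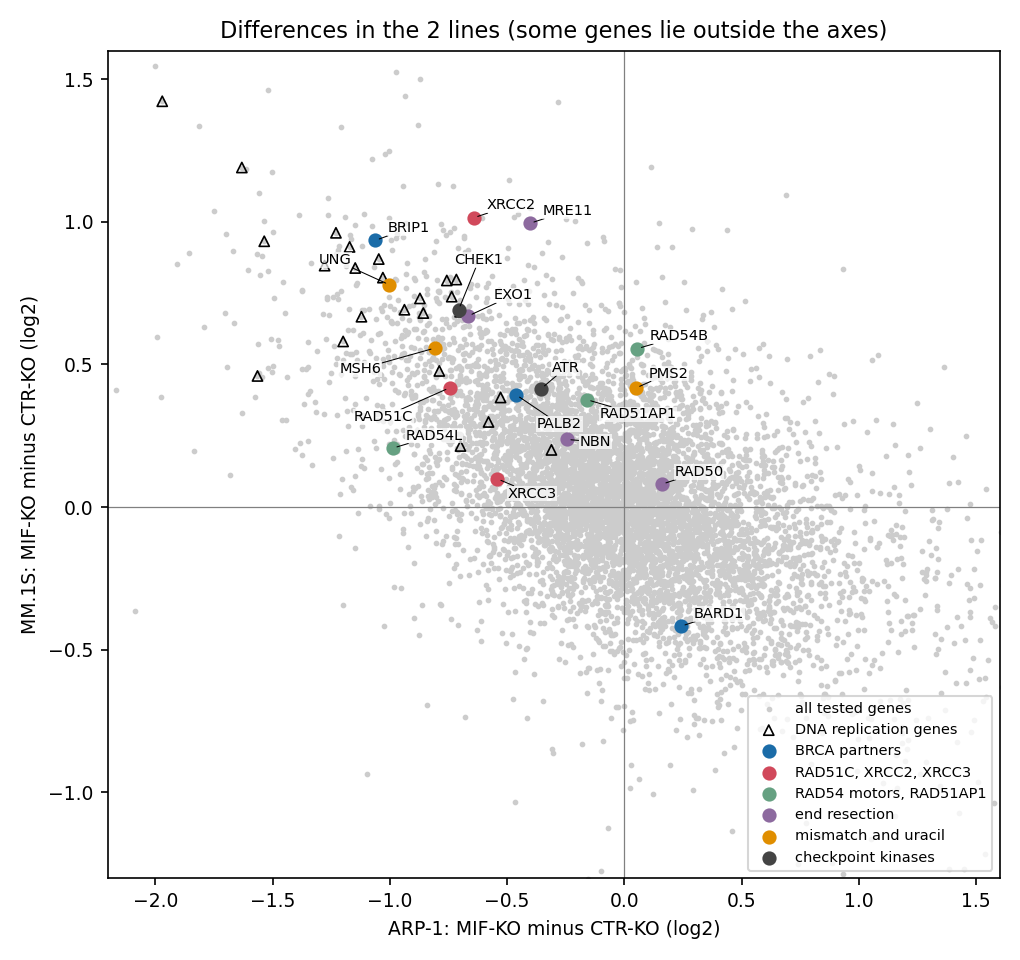
Log2 difference, MIF-KO minus CTR-KO, within ARP-1 (horizontal) and MM.1S (vertical). Grey points are all tested genes within the axes, coloured points the 18 tested repair genes by role, and triangles the 24 DNA replication genes; 14 repair genes lie at upper left (lower in ARP-1, higher in MM.1S) and BARD1 alone at lower right.

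Set between the lines, the repair genes were lower in MM.1S under the control hairpin and higher in MM.1S under the MIF hairpin. Under CTR-KO, 15 of 18 were lower in MM.1S (51.6% of all tested genes), with a median of -0.31 beside -0.02 for all genes. UNG at -0.94, XRCC2 at -0.88 and BRIP1 at -0.69 were the 3 that passed 1.5-fold downward (11.1% of all genes), and 0 passed upward (11.2%). Under MIF-KO, 15 of 18 were higher in MM.1S (56.6% of all genes), with a median of 0.68 beside 0.05, and 11 passed 1.5-fold upward (8.22%) and 0 downward (4.37%). BRIP1 was widest apart at 1.31, followed by MSH6 and EXO1 at 1.08 each and CHEK1 at 1.01. These comparisons use the same arrays as the hairpin comparisons and restate them from the other side.

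The line itself, averaged over both hairpins, gave no call. limma called 0 of 18 members and 0% of all genes for MM.1S against ARP-1, with 0 members and 87 genes (1.17%) at an unadjusted p below 0.05. Among members the widest mean line differences were EXO1 at 0.41 (SE 0.42), MSH6 at 0.40 (SE 0.42) and RAD51AP1 at 0.40 (SE 0.31), each with a limma adjusted p of 0.99986.

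**Figure D3:**
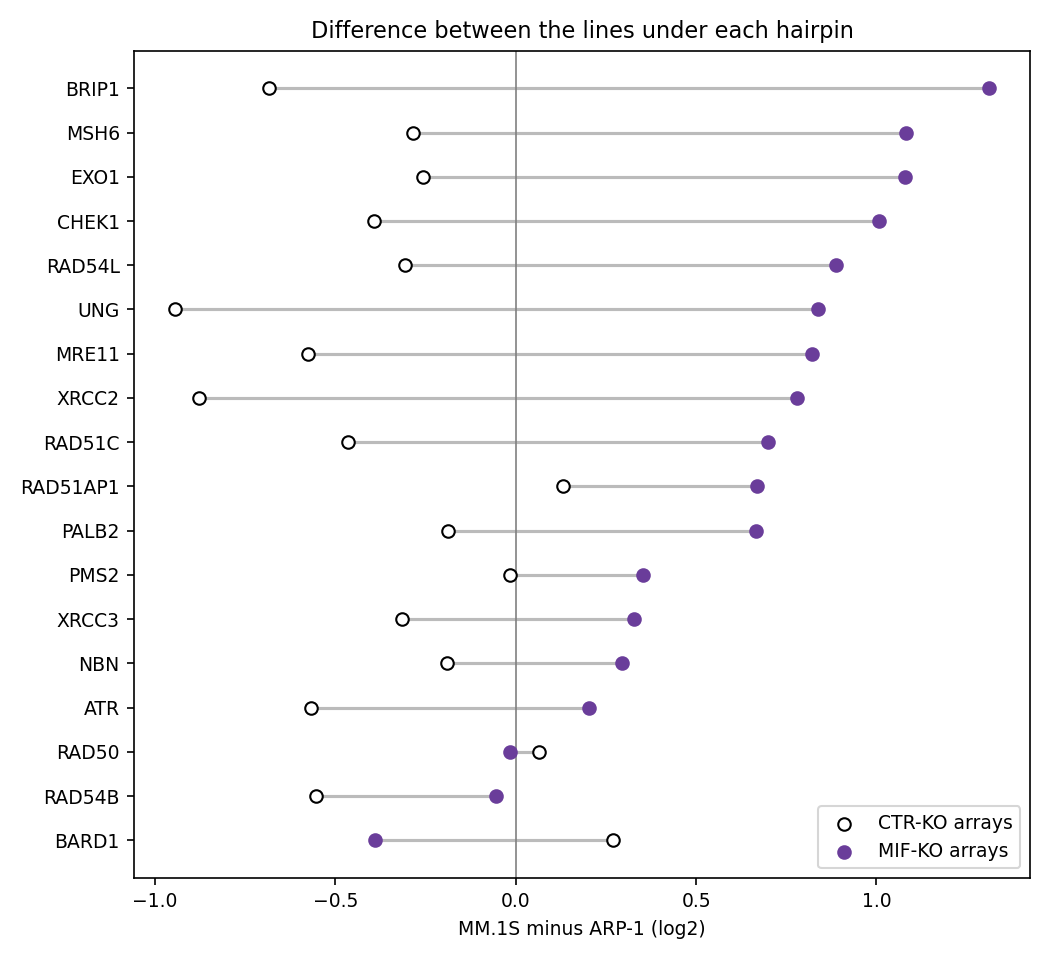
MM.1S minus ARP-1 on the log2 scale for the 18 tested repair genes, on the CTR-KO arrays (open) and the MIF-KO arrays (filled), 1 array of each line per condition and so no error bars. Filled points lie right of 0 for 15 genes and open points left of 0 for 15; RAD50 barely moves and BARD1 runs the other way.

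Further genes of the same pathways, from a list of 59 of which 40 were named and tested, leaned the same way at lesser width. In ARP-1, 30 of 40 were below control (52.3% of all tested genes) and 14 at least 1.5-fold lower (11.9%), with 1 higher (10.9%). In MM.1S, 31 were above control (55.1% of all tested genes) and 7 at least 1.5-fold higher (5.12%), with 0 lower (2.89%). Their medians were -0.26 and 0.26, nearer to 0 than those of the 18 members. CENPX, a subunit shared by the Fanconi anchor complex and the kinetochore, had log2 levels of 8.49 (CTR-KO) and 6.95 (MIF-KO) in ARP-1, and 7.02 (CTR-KO) and 8.02 (MIF-KO) in MM.1S, and differed by -1.54 and 1.003. RECQL4, a helicase of the RecQ family, had log2 levels of 7.01, 5.83, 6.08 and 6.41 and differed by -1.18 and 0.34. Of the mismatch repair genes in this list, MSH3 differed by -0.71 and 0.20. MLH3 differed by 0.19 and 0.46, and PMS1 by -0.24 and -0.08, each the same way in both lines.

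Of the 40, 9 belong to the Fanconi pathway, a group formed by function after the values were seen because the FANC genes themselves were unnamed. Their medians were -0.60 (ARP-1) and 0.28 (MM.1S). Of the 9, 5 were at least 1.5-fold lower in ARP-1 (11.9% of all tested genes) and 2 at least 1.5-fold higher in MM.1S (5.12%). UBE2T, the ubiquitin-conjugating enzyme that marks FANCD2, differed by -0.76 and 0.96, and FAAP24, which binds the anchor FANCM, by -0.92 and 0.51. FAAP100, of the core complex, differed by -0.68 and 0.22, and the ligase RFWD3 by -0.60 and 0.29. USP1, which removes the FANCD2 mark, differed by -0.25 and 0.28, and its partner WDR48 by 0.30 and -0.07. The nuclease scaffold SLX4 differed by -0.42 and 0.15, and the nuclease FAN1 by 0.25 and -0.25. FAN1 and WDR48 were thus the members of this group that ran against the rest.

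**Figure D4:**
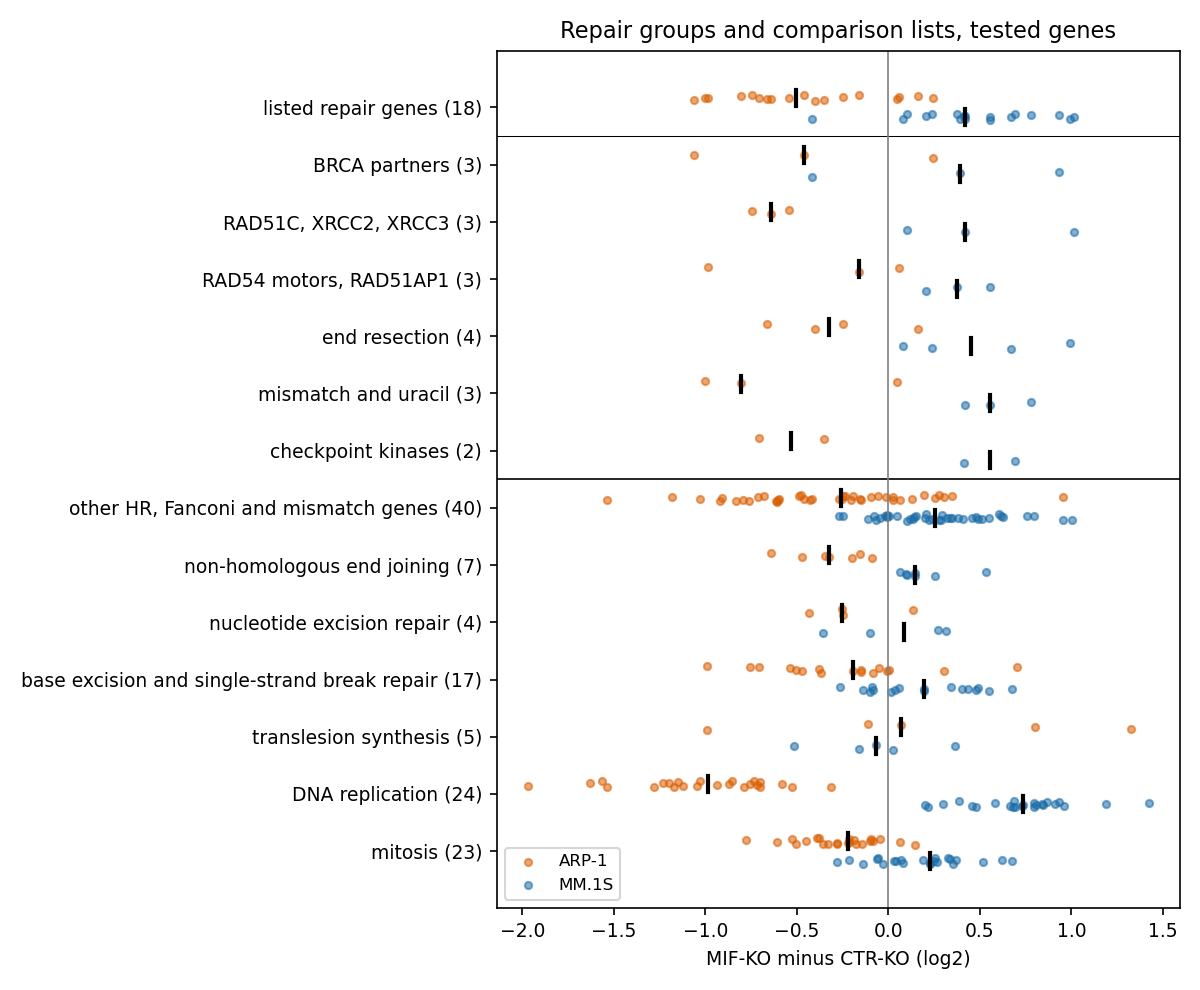
Log2 difference, MIF-KO minus CTR-KO, for each tested gene of the repair groups and comparison lists (number of genes in brackets), ARP-1 in orange and MM.1S in blue. Black bars are medians; among the listed repair genes they lie at -0.50 and 0.42, and among DNA replication genes, the widest, at -0.98 and 0.73.

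The other repair pathways had medians nearer to 0 than those of the 18 members. They were not always nearer than those of the 40 further genes, whose ARP-1 median was -0.26. Base excision and single-strand break repair (17 tested) had medians of -0.20 (ARP-1) and 0.19 (MM.1S), with 3 members at least 1.5-fold lower and 1 higher in ARP-1, and 1 higher in MM.1S, each count near the share of all tested genes given above (11.9%, 10.9% and 5.12%). TDG, a thymine glycosylase, differed by -0.99 and 0.44, and PARP2, a break-sensing polymerase of ADP-ribose, by -0.76 and 0.19. Non-homologous end joining, which rejoins ends without a template, had medians of -0.32 and 0.14 over 7 tested of 20 listed genes. All 7 were below control in ARP-1 and above it in MM.1S (37.5% of all tested genes). Only 1 of the 7 was at least 1.5-fold lower in ARP-1 (11.9% of all), and 0 were at least 1.5-fold higher in MM.1S (5.12%). XRCC6, the smaller Ku subunit, differed by -0.64 and 0.14, and XRCC4 by -0.20 and 0.53. Nucleotide excision repair, with 4 of 22 listed genes tested, had medians of -0.25 and 0.085, with RAD23B, a damage recognition factor, at -0.43 and 0.27 and cyclin CCNH, of the TFIIH kinase, at -0.26 and -0.36.

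Translesion polymerases and their helpers (5 tested) had medians near 0, at 0.068 (ARP-1) and -0.067 (MM.1S), but held opposite members. POLI, an error-prone polymerase, was higher in MIF-KO ARP-1 by 1.33 and differed by -0.52 in MM.1S. RAD18, the ligase that calls such polymerases to stalled forks, differed by -0.99 and 0.36. Differences between the medians of pathways were not tested, and the lists hold few genes.

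DNA replication genes differed in the direction of the repair genes, with medians of -0.98 (ARP-1) and 0.73 (MM.1S). Of 48 listed replication genes, 24 were named and tested, and the others have no value here. All 24 were lower with the MIF hairpin in ARP-1 but higher in MM.1S (37.5% of all tested genes). Of them, 21 were at least 1.5-fold lower in ARP-1 (11.9% of all) and 17 at least 1.5-fold higher in MM.1S (5.12%). GINS2, of the replicative helicase, differed by -1.97 and 1.42, and TIPIN, of the fork protection complex, by -1.63 and 1.19. Mitosis genes (23 tested) had medians of -0.22 and 0.23. By direction, 21 of 23 were below control in ARP-1 (52.3% of all tested genes) and 17 above it in MM.1S (55.1%). Past 1.5-fold, 2 were lower in ARP-1 and 2 higher in MM.1S, near the shares of all tested genes (11.9% and 5.12%). In both lines the 2 were ZWINT, of the kinetochore, at -0.78 and 0.62, and the checkpoint protein MAD2L1 at -0.61 and 0.67.

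The 7 tested plasma cell markers held opposite members, with medians of 0.024 (ARP-1) and -0.0074 (MM.1S). The surface antigens SDC1 and CD38 differed in the direction of the repair genes, by -1.36 and 0.48 and by -1.44 and 0.46. MZB1, XBP1 and IRF4 ran the other way, MZB1 by 0.45 and -0.63, XBP1 by 0.51 and -0.05 and IRF4 by 0.29 and -0.0074. SLAMF7 differed by 0.024 and 0.37, and POU2AF1 by -0.02 and -0.19. Of the markers of T and NK cells, the adhesion molecule NCAM1 differed by 1.95 and -0.56, against the direction of the repair genes and wider in ARP-1 than any of them, and CD7 by 0.10 and 0.25. The part of any of these in the repair gene differences was not tested.

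Directions in ARP-1 depend on which array is called MIF-KO. With the ARP-1 arrays exchanged, as their descriptions would have it, 4 members passed limma upward: BRIP1 (difference 0.998, adjusted p = 0.0183), UNG (0.89, adjusted p = 0.0258), XRCC2 (0.83, adjusted p = 0.0329) and CHEK1 (0.70, adjusted p = 0.0494). These are 4 of 18 members, where 3.39% of all tested genes passed upward. None passed downward (0 of 18; 2% of all genes). The exchange turns opposed differences into shared ones and so restates the opposition. It would also make MIF higher by 1.01 in the ARP-1 array then called MIF-KO.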

How the data were processed

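RNA of 4 samples was labelled for whole-transcript arrays. The authors deposited linear probe set intensities (2.74 to 15935), and the submitters' processing notes name RMA and limma without version or role. Background step, annotation and build have no statement in these sources. Log2 was taken with no pseudocount, since the intensities were linear. A platform annotation named 16098 of 53617 probe sets. For the 779 genes with several, the probe set of highest mean was used. limma (version 3.58.1, R 4.3.3) fitted line and condition over 7442 genes, with a variance prior trend and a threshold of 0.05, and was tested on simulated data. Cell line pairs the arrays, per the labels. RMA intensities carry no depth, so the number of arrays limits precision. The members and lists were chosen with earlier results of these data known. Named members are the 3 widest differences per role group, and named list genes the 2 widest. Other genes were named after their values were seen. These are SDC1, CD38, IRF4, XBP1, MZB1, SLAMF7, POU2AF1, NCAM1, CD7, RAD50, RAD51B, MSH3, MLH3, PMS1 and the Fanconi group. Alternatives covered scaling, filter, probe set choice, the line term, the variance trend, the fold, the ARP-1 exchange and left-out lines. Promoters come from RefSeq (GRCh38.p14).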

Additional observations from a re-analysis of the deposited data

Results flagged for a closer look

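The following genes stand here because the arrays of ARP-1 and MM.1S differed in opposite directions. With 1 array per line and condition, the difference between the lines was not tested. Values are the MM.1S difference minus the ARP-1 difference, each a log2 difference of MIF-KO from CTR-KO.

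Among the repair genes the value was 1.997 for BRIP1, 1.78 for UNG, 1.66 for XRCC2, 1.40 for MRE11, 1.40 for CHEK1, 1.37 for MSH6, 1.34 for EXO1, 1.19 for RAD54L and 1.16 for RAD51C. It was 0.86 for PALB2, 0.77 for ATR, 0.64 for XRCC3, 0.54 for RAD51AP1, 0.48 for NBN, 0.56 for CHEK2 and 0.17 for RAD51B, the last pair lying below the filter. BARD1 had the opposite sign at -0.66. RAD50, RAD54B and PMS2 differed the same way in both lines and are not among these.

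Of the genes from the comparison lists, the value was 3.39 for GINS2, 2.82 for TIPIN, 2.54 for CENPX, 1.52 for RECQL4, 1.43 for TDG, 1.40 for ZWINT, 1.35 for RAD18, 1.28 for MAD2L1, 0.95 for PARP2, 0.79 for XRCC6, 0.73 for XRCC4 and 0.70 for RAD23B. POLI had the opposite sign at -1.84.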

How the results depend on the processing

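Under the shift to the same median, quantile normalization, the mean of probe sets, no filter and the stricter filter, counts of members past 1.5-fold stayed within 1.5 times of those reported and 0 genes were called for condition or line. No named gene past 1.5-fold changed sign under either scaling or the mean of probe sets. The same 0 calls came without the cell line term (no replicate block) for condition and without the variance trend. At 2-fold in place of 1.5-fold, the ARP-1 count of lower members was 2 (2.9% of all tested genes) and the MM.1S count of higher members 1 (0.618%), counts too small to read an excess from. The median over both lines was 0.42 without replicate 1 (the ARP-1 pair) and -0.50 without replicate 2 (the MM.1S pair), an alternative added after seeing the data. Leaving out a pair leaves no residual degree of freedom, so counts of calls could not be fitted there.

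Exchange of the ARP-1 arrays, which reverses ARP-1 differences by construction, called 401 genes and 4 members, put 0 members lower and 8 higher past 1.5-fold in ARP-1, and made the members' ARP-1 median 0.50. The ARP-1 differences became 1.06 (BRIP1), 0.75 (RAD51C), 0.64 (XRCC2), 0.99 (RAD54L), 0.67 (EXO1), 0.81 (MSH6), 1.002 (UNG), 0.71 (CHEK1), 1.01 (MIF), 0.99 (TDG), 0.76 (PARP2), 1.97 (GINS2), 1.63 (TIPIN), 0.78 (ZWINT), 0.61 (MAD2L1), 0.64 (XRCC6), 1.54 (CENPX), 1.18 (RECQL4), -1.33 (POLI) and 0.99 (RAD18).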
